A study of Mus musculus with 6 samples.

Results

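The genes described here were 9 intermediate filament genes, chosen by symbol among the 55357 genes counted in mouse neuronal cultures after knockdown of *Pla2g4e*. They were the neurofilament subunit genes *Nefl*, *Nefm*, *Nefh* and *Ina*, the related *Prph*, and *Vim*, *Gfap*, *Nes* and *Synm*, whose filaments are found mainly in glia and progenitors. All 9 passed the filter on low counts (at least 6 reads in at least 1 library), which kept 21876 genes. The 6 libraries were poly(A) RNA-seq of wild type primary cultures, which the study prepared from the cortex and hippocampus of E18 C57BL/6N embryos. In the shCtrl group (n = 3) the cultures received lentiviral particles with a scrambled shRNA, and in the shPla2g4e group (n = 3) the same amount of particles with an shRNA against *Pla2g4e*. The comparison asks how the transcriptome differs when less *Pla2g4e* is made. Transduction was at DIV4 (day 4 in vitro) and collection at DIV14 in both groups. All knockdown libraries carried the same shRNA sequence, sh2, so that no other shRNA against the gene can be compared here. The labels do not say whether the replicates were separate cultures or animals, and the p-values then measure the spread between these libraries, which may be technical.

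Intermediate filaments are rope-like polymers that give a cell its mechanical strength. In axons of the central nervous system they are neurofilaments, built of a light (*Nefl*), a medium (*Nefm*) and a heavy (*Nefh*) chain together with alpha-internexin (*Ina*), and they set the calibre of the axon. Alpha-internexin and the light and medium chains appear early in neuronal development, whereas the heavy chain accumulates late, as axons mature. Astrocytes hold glial fibrillary acidic protein (*Gfap*) and vimentin (*Vim*), and neural progenitors hold vimentin and nestin (*Nes*).

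Levels are given as CPM, read counts relative to the library total scaled with edgeR's TMM factors, and SE is the standard error of a log2 fold change. Between 17054717 and 23570180 reads were counted per library, and mitochondrial genes took 2.75% to 3.79% of them. The targeted gene *Pla2g4e*, a phospholipase, had 38.0, 35.1 and 35.4 CPM in shCtrl replicates 1 to 3 and 21.8, 14.1 and 18.7 CPM in shPla2g4e replicates 1 to 3. All knockdown libraries were below all controls, with 50.5% of the control mean left (log2 fold change −0.99, SE 0.13, adjusted p = 1.24e-04). This and the adjusted p-values below are from edgeR's quasi-likelihood test with Benjamini-Hochberg adjustment over the 21876 genes, and a gene was called at an adjusted p of 0.01. Neuron markers summed to 5148 to 6193 CPM in every library, and markers of astrocytes, oligodendrocyte lineage cells and progenitors were also present, so that the cultures labelled as neurons held glial RNA as well.

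Of the 9 genes, 3 were called. *Nefl* and *Nefm* rose and *Nefh* fell. Of all genes tested, 6.49% were called, 543 as higher and 876 as lower in shPla2g4e cultures. The same 3 of the 9 were called by DESeq2 (11.6% of all genes to which it gave an adjusted p) and by limma after voom (6.53%). The median log2 fold change was −0.02 over the 9 genes and 0.03 over all genes tested. The same 3 genes were the ones whose CPM did not overlap between the groups, a state found in 30.0% of all genes tested.

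**Figure D1:**
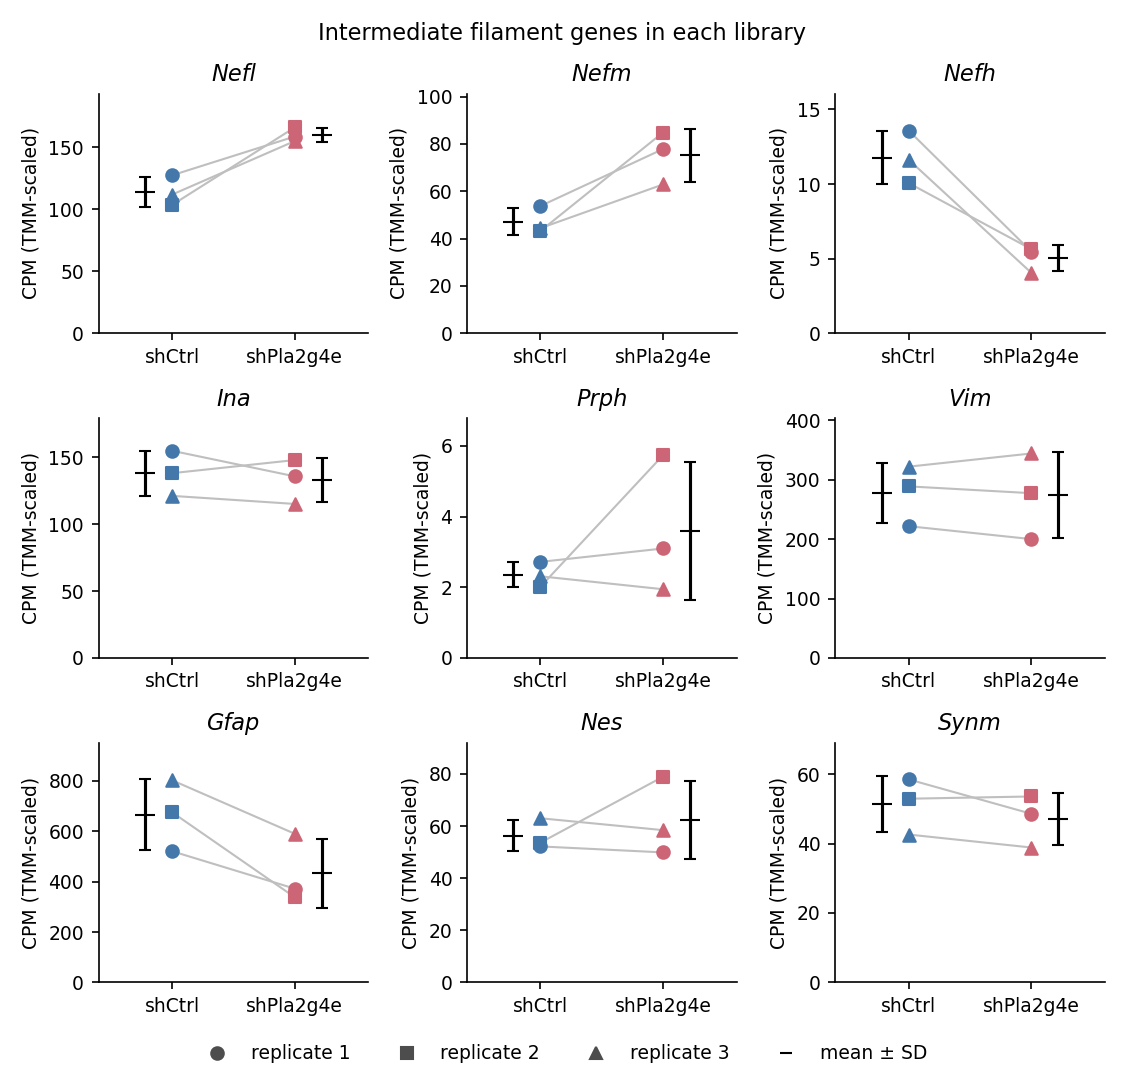
TMM-scaled CPM (vertical axes, each from 0) of the 9 intermediate filament genes in each library, with shCtrl in blue and shPla2g4e in red. Marker shapes and grey lines give the replicate number and black bars the mean ± SD of 3 libraries. *Nefl* and *Nefm* are higher and *Nefh* is lower in all 3 knockdown libraries, and the groups of the other 6 genes overlap.

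The light chain gene *Nefl* (ENSMUSG00000022055, GRCm39 chr14:68321312-68326544, plus strand) encodes the subunit on which the other chains assemble. It had 127.3, 103.5 and 111.8 CPM in shCtrl replicates 1 to 3 and 158.6, 165.9 and 154.9 CPM in shPla2g4e replicates 1 to 3. The lowest knockdown library lay well above the highest control. The mean rose from 114.2 ± 12.1 to 159.8 ± 5.60 CPM (SD, n = 3 per group), with a log2 fold change of 0.48 (SE 0.087, adjusted p = 0.00142). Without shCtrl replicate 2 the log2 fold change was 0.42 and no longer passed (adjusted p = 0.0197), and with any other single library left out it was called.

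The medium chain gene *Nefm* (ENSMUSG00000022054, chr14:68320039-68362295, minus strand) overlaps it on the opposite strand and encodes a subunit with a long tail that projects from the filament. Its values were 53.8, 43.2 and 44.4 CPM in shCtrl replicates 1 to 3 and 77.8, 84.8 and 62.8 CPM in shPla2g4e replicates 1 to 3. Every knockdown library was again above every control, and shPla2g4e replicate 3 was the nearest to them. The mean went from 47.1 ± 5.78 to 75.1 ± 11.2 CPM (SD, n = 3 per group), with a log2 fold change of 0.68 (SE 0.11, adjusted p = 7.94e-04). It stayed between 0.58 and 0.79 and was called without each of the 6 libraries, at adjusted p-values up to 0.00997.

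The exons of *Nefl* and *Nefm* share 1108 bases on opposite strands, which is 32.8% of the exon bases of *Nefl* and 19.2% of those of *Nefm*. The counting command holds no option for strand, and reads overlapping exons of both genes were left out, so the counts of *Nefl* came from its other 2272 exon bases and those of *Nefm* from its other 4674. Whether transcripts of the opposite strand added to either count was not tested.

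The heavy chain gene *Nefh* (ENSMUSG00000020396, chr11:4888754-4898064, minus strand) moved the other way. It had 13.6, 10.07 and 11.6 CPM in shCtrl replicates 1 to 3 and 5.48, 5.64 and 4.06 CPM in shPla2g4e replicates 1 to 3. All knockdown libraries lay below all controls, and shPla2g4e replicate 3 was the lowest. The mean fell from 11.8 ± 1.76 to 5.06 ± 0.872 CPM (SD, n = 3 per group), or to 43.0% of the control mean, with a log2 fold change of −1.21 (SE 0.18, adjusted p = 2.61e-04). Without each library in turn it stayed between −1.31 and −1.08 and was called every time. These values rest on 200 to 280 reads per control library and 71 to 131 per knockdown library, and no exon base of *Nefh* overlaps another gene.

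The heavy chain differs from the other subunits in its tail, where the motif lysine-serine-proline recurs and is the main site of neurofilament phosphorylation. Its coding sequence shows this feature, and a stretch is printed to let the repeat be seen. In the transcript with the longest coding sequence (GENCODE vM21), in-frame codon triplets for lysine, serine and proline occurred 51 times among the 1090 codons of *Nefh*, between codons 522 and 887, against 4 times in the 848 codons of *Nefm* and 5 times in the 1864 codons of *Nes*. The coding sequences of *Nefl*, *Ina*, *Prph*, *Vim*, *Gfap* and *Synm* held none. Codons 521 to 560 of *Nefh* (GRCm38, chr11:4940938-4941057, minus strand, coding exon sequence) contain 7 of these triplets, printed in capitals.
*Nefh* codons 521 to 560: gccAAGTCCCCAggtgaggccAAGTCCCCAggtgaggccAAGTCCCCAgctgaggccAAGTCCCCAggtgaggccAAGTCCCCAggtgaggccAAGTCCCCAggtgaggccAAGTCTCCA
Of the 50-base stretches of the *Nefh* transcript, 3.80% occur more than 1 time within it. Reads that fit several places were left out by the counting, which can lower the level of *Nefh* in both groups.

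Alpha-internexin, the product of *Ina* (ENSMUSG00000034336, chr19:47003137-47013766, plus strand), is the neurofilament partner of the early neuron. It had 154.9, 138.2 and 121.2 CPM in shCtrl replicates 1 to 3 and 135.8, 148.0 and 115.2 CPM in shPla2g4e replicates 1 to 3. The groups overlapped over nearly their whole range. The log2 fold change was −0.05 (SE 0.10, adjusted p = 0.813), and 14.1% of its exon bases overlap *Nt5c2* on the other strand.

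Peripherin, the product of *Prph* (ENSMUSG00000023484, chr15:98953055-98956859, plus strand), belongs mainly to peripheral neurons and those that project to the periphery. It was near the limit of the data, with 2.72, 2.01 and 2.31 CPM in shCtrl replicates 1 to 3 and 3.10, 5.73 and 1.94 CPM in shPla2g4e replicates 1 to 3, from 34 to 124 reads per library. The knockdown group held both the highest and the lowest value. Its log2 fold change of 0.62 (SE 0.33, adjusted p = 0.254) did not pass, and it ranged from 0.12 to 0.90 when each library was left out.

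**Figure D2:**
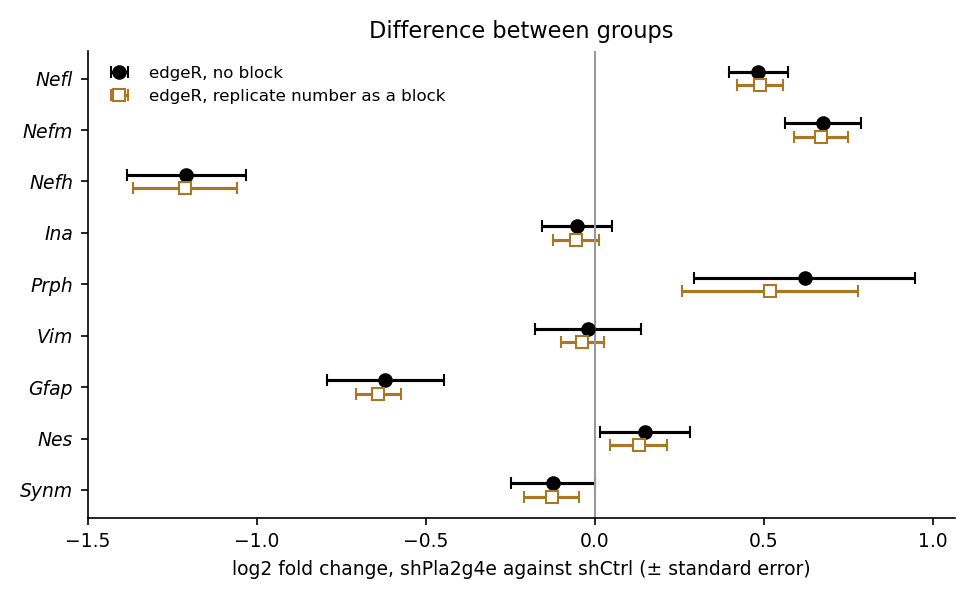
Log2 fold change ± standard error, shPla2g4e against shCtrl, of the 9 genes from edgeR without a block (black) and with the replicate number as a block (brown squares). *Nefl* and *Nefm* lie at 0.48 and 0.68 and *Nefh* at −1.21 without the block, and the standard error of *Gfap* shrinks from 0.17 to 0.068 with it.

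Among the genes of glia and progenitors, none was called. *Gfap* (ENSMUSG00000020932, chr11:102778162-102791738, minus strand), the defining filament of astrocytes, had 520.1, 674.4 and 801.4 CPM in shCtrl replicates 1 to 3 and 371.9, 337.9 and 589.5 CPM in shPla2g4e replicates 1 to 3. The groups overlapped, because shPla2g4e replicate 3 lay above shCtrl replicate 1. Within each replicate number the knockdown library was lower, at 0.715, 0.501 and 0.736 times its control for replicates 1, 2 and 3. The mean was 665.3 ± 140.9 CPM in shCtrl and 433.1 ± 136.5 CPM in shPla2g4e cultures (SD, n = 3 per group), with a log2 fold change of −0.62 (SE 0.17) whose adjusted p of 0.0267 missed the threshold. With the replicate number, which was treated as a pairing, as a block, the log2 fold change was −0.64 (SE 0.068) and passed (adjusted p = 6.26e-12). Of all genes tested, 15.5% were called with the block, and 4 of the 9 genes were, *Gfap* being the one added. Without shPla2g4e replicate 3 the unblocked value was −0.91 and passed (adjusted p = 7.84e-05), and with any other single library left out it did not, at adjusted p-values of 0.0103 to 0.118.

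Vimentin, the product of *Vim* (ENSMUSG00000026728, chr2:13578738-13587637, plus strand), is shared by astrocytes, progenitors and cells of mesenchymal origin. It had 221.8, 288.9 and 322.1 CPM in shCtrl replicates 1 to 3 and 200.1, 277.4 and 344.3 CPM in shPla2g4e replicates 1 to 3. Each knockdown library was close to the control of its own number, and the values spread far more between numbers than between groups. The log2 fold change was −0.02 (SE 0.16, adjusted p = 0.958). In both groups *Vim* and *Gfap* were at their highest in replicate 3.

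Nestin, the product of *Nes* (ENSMUSG00000004891, chr3:87878385-87887758, plus strand), marks neural progenitors. It had 52.2, 53.6 and 63.0 CPM in shCtrl replicates 1 to 3 and 49.9, 78.9 and 58.4 CPM in shPla2g4e replicates 1 to 3, with shPla2g4e replicate 2 alone above the controls. Its log2 fold change was 0.15 (SE 0.13, adjusted p = 0.545). Synemin, the product of *Synm* (ENSMUSG00000030554, chr7:67379908-67409490, minus strand), is a large protein that joins filaments of other subunits. It had 58.5, 52.9 and 42.6 CPM in shCtrl replicates 1 to 3 and 48.6, 53.5 and 38.9 CPM in shPla2g4e replicates 1 to 3. These overlapped (log2 fold change −0.12, SE 0.12, adjusted p = 0.599), and 6.43% of its exon bases lie opposite other genes.

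Levels of different genes were compared per kilobase of exon. In the shCtrl cultures the order ran from *Gfap* (157.7 CPM per kb), *Vim* (58.5), *Ina* (42.6) and *Nefl* (33.8) to *Nes* (8.77), *Nefm* (8.15), *Synm* (6.47), *Nefh* (2.94) and *Prph* (1.17 CPM per kb). The library ranges overlapped for the neighbours *Vim* and *Ina*, *Ina* and *Nefl*, and *Nes* and *Nefm*, and these pairs have no clear order. Shared exon bases count in these lengths although their reads were left out, so that *Nefl*, *Nefm*, *Ina* and *Synm* are understated per kb. The lengths also take in all annotated exons of a gene. They exceeded the transcript with the longest coding sequence (GENCODE vM21) most for *Vim* (4743 against 2193 bases), *Nefm* (5782 against 3334) and *Gfap* (4218 against 2648). For *Nefl*, *Nefh* and *Ina* they equalled it. The order, shares and ratios per kb thus depend on the length used. In the shPla2g4e cultures the order by mean was *Gfap* (102.7 CPM per kb), *Vim* (57.8), *Nefl* (47.3), *Ina* (41.0), *Nefm* (12.997), *Nes* (9.73), *Synm* (5.92), *Prph* (1.80) and *Nefh* (1.27 CPM per kb). There *Nefl* stood above *Ina*, though its lowest library (45.8 CPM per kb) was close to the highest of *Ina* (45.7 CPM per kb). *Vim* overlapped *Nefl*, *Nefm* overlapped *Nes*, and *Nefh*, last by its mean, overlapped *Prph*.

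The make-up of the neurofilament genes was described by the share of each in the summed CPM per kb of *Nefl*, *Nefm*, *Nefh*, *Ina* and *Prph*. The shares do not depend on how the libraries are scaled to each other. Their sum was 82.2 to 99.6 CPM per kb in shCtrl and 94.2 to 113.7 CPM per kb in shPla2g4e libraries, which overlap. *Nefl* made up 37.8%, 36.3% and 40.2% in shCtrl replicates 1 to 3 and 44.6%, 43.2% and 48.6% in shPla2g4e replicates 1 to 3. Its share was higher in every knockdown library. *Nefm* went from 9.34%, 8.86% and 9.34% to 12.8%, 12.9% and 11.5%, and *Ina* from 48.04%, 50.6% and 45.5% to 39.8%, 40.2% and 37.7%. *Nefh* went from 3.42%, 2.99% and 3.54% to 1.30%, 1.24% and 1.08%. A share also falls when other genes in its sum rise, and the CPM of *Ina* itself overlapped between the groups (log2 fold change −0.05). In none of these 4 shares did the groups overlap. Each gave p = 0.1 in the exact two-sided permutation test, the smallest that 3 against 3 libraries can give, and 0.15 after Benjamini-Hochberg adjustment over the 12 shares and ratios tested, so that a p under 0.05 could not be reached. The share of *Prph* overlapped (exact p = 0.7).

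The subunits that join in a filament were also compared with each other. The ratio of *Nefh* to *Nefm* per kb was 0.366, 0.337 and 0.379 in shCtrl replicates 1 to 3 and 0.102, 0.0963 and 0.0934 in shPla2g4e replicates 1 to 3. It differed far more between the groups than within them, with means of 0.361 ± 0.0214 and 0.0972 ± 0.00434 (SD, n = 3 each; exact permutation p = 0.1). *Nefh* to *Nefl* had a mean ratio of 0.0869 ± 0.00410 in shCtrl and 0.0267 ± 0.00396 in shPla2g4e cultures (SD, n = 3 each; exact permutation p = 0.1), also without overlap. *Nefm* to *Nefl* was 0.241 ± 0.00774 and 0.274 ± 0.0327 (SD, n = 3 each), and here the groups overlapped (exact permutation p = 0.3). Within each replicate number the ratio was higher in the knockdown library.

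Among *Gfap*, *Vim*, *Nes* and *Synm*, *Gfap* held 66.4%, 67.8% and 69.6% of the summed CPM per kb in shCtrl replicates 1 to 3 and 61.1%, 50.8% and 61.7% in shPla2g4e replicates 1 to 3. *Vim* held 25.2%, 25.8% and 24.9% and then 29.2%, 37.1% and 32.1%. Neither share overlapped between the groups, although the CPM of both genes did (exact permutation p = 0.1 for each, 0.15 after adjustment). *Nes* (exact p = 0.2) and *Synm* (exact p = 0.5) overlapped, but within each replicate number both shares were higher in the knockdown library. The permutation test does not use the pairs.

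**Figure D3:**
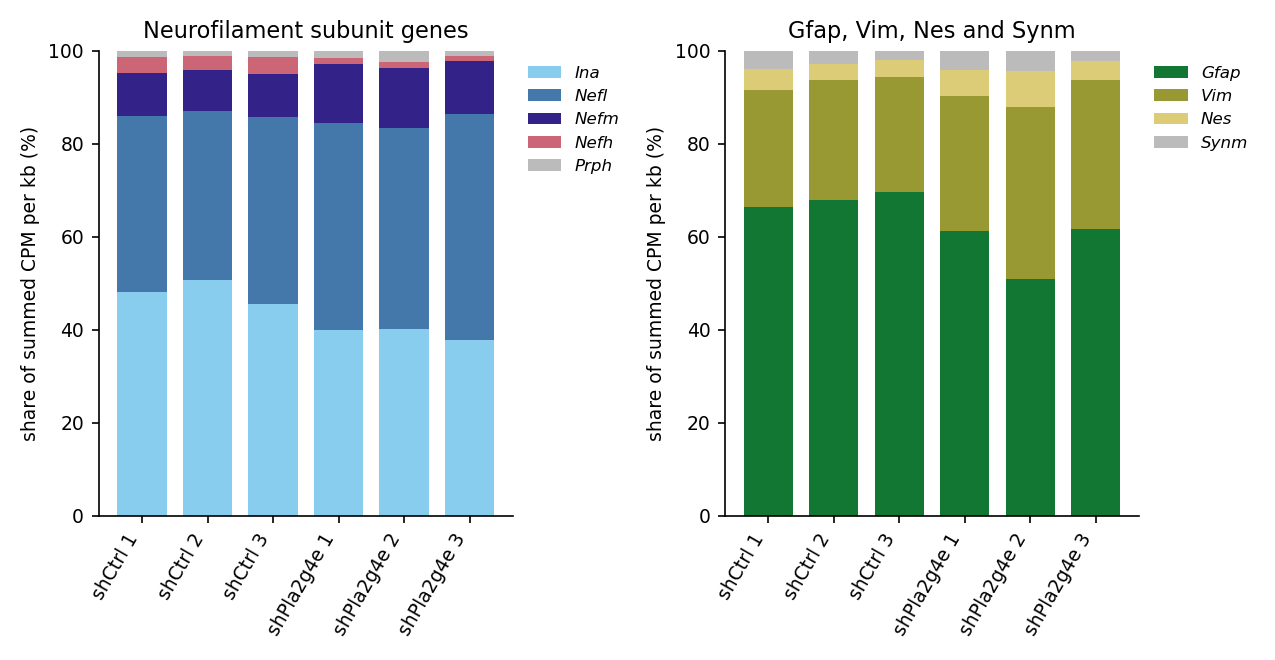
Share (%) of each gene in the summed TMM-scaled CPM per kb of its class in each library, for the neurofilament subunit genes (left) and for *Gfap*, *Vim*, *Nes* and *Synm* (right). The band of *Nefh* has a mean of 3.32% in shCtrl and 1.21% in shPla2g4e libraries, and that of *Gfap* 67.9% and 57.9%.

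Neuron markers moved unevenly beside the neurofilament genes. Of 10 neuron markers, 0 were called as higher and 3 as lower, namely *Tubb3* (neuronal beta-tubulin, log2 fold change −1.68, adjusted p = 3.68e-08), *Map2* (a dendritic microtubule protein, −0.45, adjusted p = 0.00123) and *Rbfox3* (a nuclear splicing factor, −0.41). The call of *Map2* was lost without shCtrl replicate 2, and that of *Rbfox3* without any library except shCtrl replicate 3. Calls made up 30% of the list without the block and 50% with it, beside 6.49% and 15.5% of all genes tested. The median log2 fold change of the list was −0.14, and its summed CPM was 5652 to 6193 in shCtrl and 5148 to 5497 in shPla2g4e libraries. With the block 4 were called as lower and 1 as higher, *Snap25*, a protein of synaptic vesicle fusion (0.26 with and without the block, adjusted p = 3.53e-04 with it and 0.0471 without), whose groups did not overlap. The lower call that the block added was *Elavl3*, a neuronal RNA-binding protein (−0.30 with and without the block, adjusted p = 8.20e-05 with it and 0.0432 without), whose groups did not overlap either. The other 5 markers passed neither fit, namely (values without the block) *Elavl4* (0.20, adjusted p = 0.175), *Eno2* (0.11, adjusted p = 0.451), *Syn1* (−0.04, adjusted p = 0.848), *Syp* (−0.09, adjusted p = 0.611) and *Stmn2* (−0.19, adjusted p = 0.138), the last with no overlap between the groups. The summed neuron markers were at 0.888, 0.855 and 0.916 times their control for replicates 1, 2 and 3, and at 0.921, 0.920 and 0.999 times without *Map2*, which took the most reads of them, a sum chosen after its values were seen. *Nefh* was at 0.403, 0.560 and 0.349 times its control, below the ratio of these sums in each pair. In bulk RNA, fewer cells of a type and less RNA per cell cannot be told apart. The part of cell composition in these results was not tested.

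Astrocyte markers were examined beside *Gfap*. Of 10, 0 were called as higher and 3 as lower, namely *Aqp4* (the water channel of astrocyte endfeet, 147.9 ± 32.6 to 65.2 ± 25.9 CPM, log2 fold change −1.19), *Gja1* (connexin 43, −0.66) and *Slc1a2* (a glutamate transporter, −0.50). With the replicate block 6 were called as lower, which added *Slc1a3* (−0.26, adjusted p = 0.00125), *Aldoc* (−0.32, adjusted p = 1.34e-04) and *Sox9* (−0.26, adjusted p = 0.00297), and 1 as higher, *S100b* (1.12, adjusted p = 9.63e-04). The call of *Aqp4* was lost with DESeq2 (adjusted p = 0.0124) and the robust fit (adjusted p = 0.122). That of *Gja1* was lost with the robust fit and without shPla2g4e replicate 1 or 2, and that of *Slc1a2* without any library except shPla2g4e replicate 3 and with upper-quartile scaling, library size alone or the stricter filters (adjusted p = 0.0133 to 0.0196). Calls made up 30% of the astrocyte list without the block and 70% with it, beside 6.49% and 15.5% of all genes tested. The median log2 fold change of the list was −0.27, and its summed CPM was 2460 to 3006 in shCtrl and 1714 to 2657 in shPla2g4e libraries. By replicate number the sum was 0.747, 0.639 and 0.884 times the control, against 0.715, 0.501 and 0.736 for *Gfap* and 0.902, 0.960 and 1.07 for *Vim*. *Aldh1l1* and *Fgfr3* passed neither without the block (0.19, adjusted p = 0.389, and 0.01, adjusted p = 0.947) nor with it. *Gjb6*, at only 1.82 CPM in shCtrl and 1.16 CPM in shPla2g4e cultures, also passed neither fit (−0.67, adjusted p = 0.315 without the block). It was lower in all 3 pairs. Whether fewer astrocytes took part in the lower *Gfap* was not tested.

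**Figure D4:**
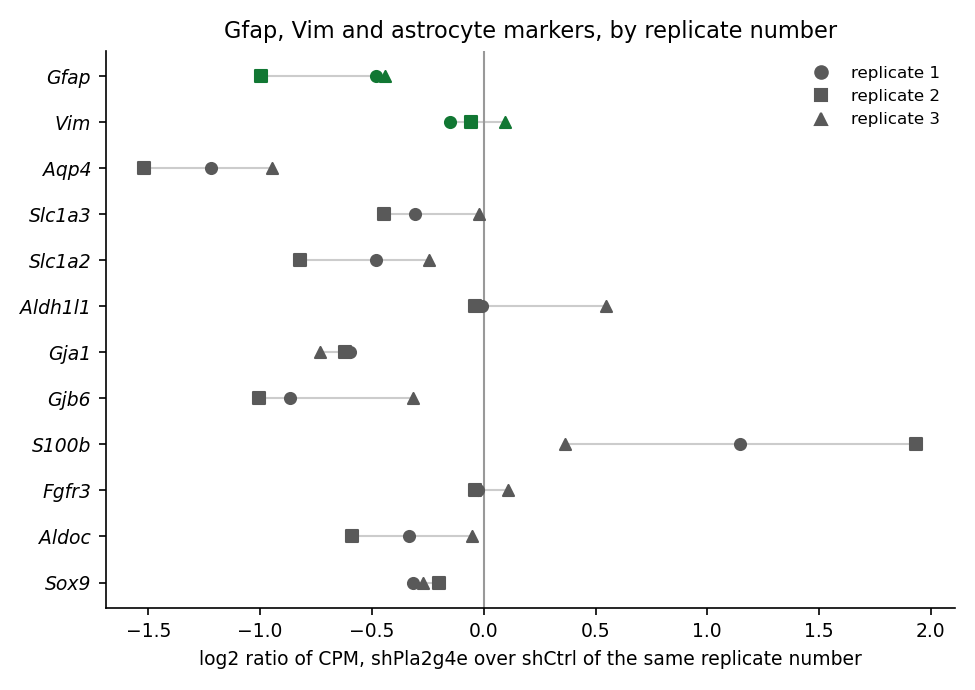
Log2 ratio of CPM, shPla2g4e over the shCtrl library of the same replicate number, for *Gfap* and *Vim* (green) and 10 astrocyte markers (grey), with a marker shape for each replicate number. All 3 ratios of *Gfap* lie below 0, as do, among others, those of *Aqp4*, *Slc1a2* and *Gja1*, whereas *Vim* lies about 0 and *S100b* above it.

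Markers of other cells that hold *Vim* or *Nes* gave few calls. Of 9 progenitor and dividing cell markers, 1 was called, *Top2a*, which acts in dividing cells (log2 fold change −1.001, adjusted p = 0.00613), while *Mki67*, another marker of cycling cells, had −1.13 (adjusted p = 0.0148) and was called with the block (−1.14, adjusted p = 1.51e-08). The call of *Top2a* was lost with library size alone, the robust fit, both stricter filters, and without shCtrl replicate 2 or 3 or shPla2g4e replicate 1 or 2 (adjusted p up to 0.0552). *Prom1* (0.44, adjusted p = 0.137) and *Hes5* (0.71, adjusted p = 0.178), both of progenitors, had values of the other sign. Calls made up 11.1% of the list without the block and 22.2% with it, beside 6.49% and 15.5% of all genes tested. The sums of the list were 212.0 to 262.4 CPM in shCtrl and 186.0 to 265.9 CPM in shPla2g4e libraries. Of 9 oligodendrocyte lineage markers, 0 were called by edgeR, DESeq2 or limma. The log2 fold change was positive for 7 of them and negative for 2, with a median of 0.16. *Olig2*, at −0.38, was the only one called with the block (−0.37, adjusted p = 5.28e-04). That is 11.1% of the list, beside 15.5% of all genes tested. The 9 markers summed to 524.8 to 593.1 and 546.8 to 651.0 CPM. Microglia markers summed to only 19.9 to 27.1 and 22.9 to 24.2 CPM, with 6 of 8 tested and 0 called by the 3 tools. The log2 fold change was positive for 2 of the 6 and negative for 4. *P2ry12*, a defining marker, was at 0 in shPla2g4e replicates 1 and 3, and *C1qa* had −1.12. Markers of fibroblasts, mural and endothelial cells summed to 49.3 to 85.6 and 52.0 to 103.3 CPM, with 9 of 10 tested and 0 called by the 3 tools. The log2 fold change was positive for 6 of the 9 and negative for 3, with a median of 0.18. *Col1a1* and *Col1a2* had 1.17 and 1.20 and were called with the block (1.14, adjusted p = 4.56e-04, and 1.10, adjusted p = 0.00824). That is 22.2% of the 9, beside 15.5% of all genes tested.

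The other intermediate filament genes, keratins, lamins and rarer members, mostly had few or no reads. Of 59 in the files, 30 were under the filter, and of the 29 tested 2 were called, both higher, which is 6.90% of the list beside 6.49% of all genes tested. *Krt20*, a keratin of gut and bladder epithelium, had 6.36, 5.89 and 8.61 CPM in shCtrl replicates 1 to 3 and 16.5, 12.9 and 19.9 CPM in shPla2g4e replicates 1 to 3. All knockdown libraries lay above all controls (log2 fold change 1.23, SE 0.18, adjusted p = 2.77e-04). *Krt77*, a keratin of sweat gland ducts, rose less, from 7.08 ± 0.533 to 11.4 ± 1.06 CPM (SD, n = 3 each, log2 fold change 0.68, adjusted p = 0.00597), and kept its call only when shPla2g4e replicate 3 was the library left out. The lamins *Lmna* and *Lmnb1*, which line the nucleus, had log2 fold changes of 0.03 (adjusted p = 0.885) and −0.23 (adjusted p = 0.157). With the block 4 genes of this list were called, 13.8% beside 15.5% of all genes tested, among them *Krt73* as higher (1.99, adjusted p = 0.00340) and *Lmnb2* as lower (−0.31, adjusted p = 0.00721).

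Plakins tie intermediate filaments to microtubules, actin and junctions. Of 6 such linker genes tested 1 was called (16.7%, beside 6.49% of all genes tested), and the 3 abundant ones had values below their controls. *Plec*, which encodes plectin, had 171.8, 175.4 and 160.7 CPM in shCtrl replicates 1 to 3 and 139.5, 120.4 and 134.0 CPM in shPla2g4e replicates 1 to 3. It fell without overlap (log2 fold change −0.37, SE 0.082, adjusted p = 0.00698), a call lost without shCtrl replicate 1 or 2 or shPla2g4e replicate 1 or 2 (adjusted p up to 0.0551), and with upper-quartile scaling or library size alone. *Dst* (dystonin, −0.25, adjusted p = 0.0412) and *Macf1* (−0.27, adjusted p = 0.0390) passed at 0.05, a threshold that 12.9% of all genes tested passed, and not at 0.01. With DESeq2 all 3 were called, and so they were with the block (*Dst* −0.25, adjusted p = 8.79e-04, and *Macf1* −0.27, adjusted p = 3.35e-04). DESeq2 called 11.6% of the genes to which it gave an adjusted p, and the fit with the block 15.5% of all genes tested.

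Of 11 genes for turnover, phosphorylation, chaperoning and transport of filaments, 2 were called, both lower (18.2%, beside 6.49% of all genes tested). With the block 1 was called as higher and 3 as lower (36.4%, beside 15.5% of all genes tested). *Kif5a*, the kinesin heavy chain that carries neurofilaments along axons, had 1235, 1282 and 1273 CPM in shCtrl replicates 1 to 3 and 977.2, 759.6 and 925.6 CPM in shPla2g4e replicates 1 to 3. Its fall had no overlap (log2 fold change −0.51, SE 0.093, adjusted p = 0.00164) and missed the threshold only without shCtrl replicate 2 (adjusted p = 0.0174). *Cryab*, a small heat shock protein that binds glial filaments, fell from 15.0 ± 2.495 to 9.16 ± 1.43 CPM (SD, n = 3 each, log2 fold change −0.72, adjusted p = 0.00668). Its call was kept only without shCtrl replicate 1 or shPla2g4e replicate 3, it was lost with upper-quartile or library-size scaling and with the stricter filters, and 17.0% of its exon bases overlap *Hspb2*. The activators of the neurofilament kinase Cdk5, *Cdk5r1* and *Cdk5r2*, had 0.01 (adjusted p = 0.969) and 0.11 (adjusted p = 0.422).

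**Figure D5:**
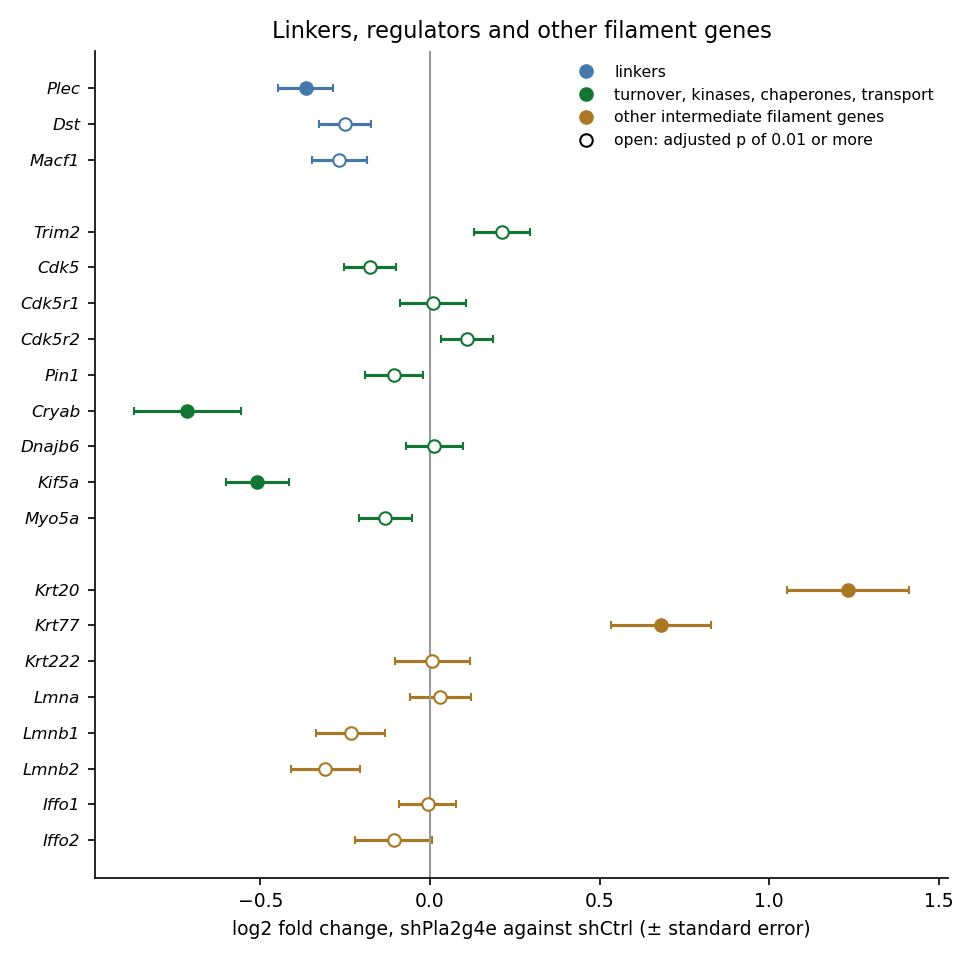
Log2 fold change ± standard error, shPla2g4e against shCtrl, of linker genes (blue), genes for turnover, kinases, chaperones and transport (green) and other intermediate filament genes (brown) whose log2 CPM averaged at least 2.5, of those reported here. Filled points passed an adjusted p of 0.01, and these are *Plec*, *Cryab* and *Kif5a* below 0 and *Krt20* and *Krt77* above 0.

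The pattern of each called gene over the 6 libraries was compared with those of the 10908 genes whose log2 CPM averaged at least 3, by the root-mean-square difference of centred log2 CPM. Nearest to *Nefl* were *Parm1* (0.0207) and *Cyp51* (0.0399), to *Nefm* *Hrh2* (0.0719) and *Rasa4* (0.0742), and to *Nefh* *Ttpal* (0.0947) and *Lypd1* (0.144). Among the 9 genes themselves, *Ina* and *Synm* were the most alike (0.0610), then *Nefl* and *Nefm* (0.139), while *Nefm* and *Nefh* differed the most (0.939).

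Because an shRNA can also act through its seed (bases 2 to 8 of the guide), the transcripts of the 9 genes were searched for the heptamer that pairs with the seed of sh2. The guide is the reverse complement of the target, the seed and its site are in capitals, and the sequences are shown so that the sites in the members can be compared with them.
sh2 target in *Pla2g4e*: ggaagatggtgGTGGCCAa
sh2 guide: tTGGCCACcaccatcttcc
*Gfap* coding site 1: ggagatggatGTGGCCAagccagacct
*Gfap* coding site 2: atacgaggcaGTGGCCAccagtaacat
*Synm* 3′ UTR site: ttgtaagaatGTGGCCAaggtggtaca
The search read the sense strand of the transcript with the longest coding sequence (GENCODE vM21). The heptamer GTGGCCA was found in the 3′ UTR of 12.01% of 15485 tested genes and in the coding sequence of 25.6% of 15849. *Nefl*, *Nefm*, *Nefh*, *Ina*, *Prph* and *Vim* held none. *Gfap* held 2, both in exon 4 of 9 (GRCm38, chr11:102894476-102894482 and chr11:102894419-102894425, minus strand), and *Nes* held 1 in its coding sequence. *Synm* held 1 in its coding sequence and 1 in the 3′ UTR within exon 4 of 4 (GRCm38, chr7:67731272-67731278, minus strand), and its log2 fold change was −0.12. Of the partner genes, *Kif5a* held 1 in its coding sequence and 1 in its 3′ UTR, *Plec* held 1 in its coding sequence, and *Krt20*, *Krt77* and *Cryab* held none. The 3 called members were without a site in these transcripts, and the longest run that they shared with the 19-base target was 7 bases in *Nefl*, 8 in *Nefm* and 9 in *Nefh*. The search did not cover the other strand of the hairpin or the scrambled shRNA. Off-target action on the members, direct or through other genes, was not tested.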

How the data were processed

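Poly(A) RNA of 6 neuronal culture libraries was sequenced (TruSeq Stranded mRNA). Per the labels and the submitters' processing notes, the authors checked reads with FastQC 0.11.8, aligned them with STAR 2.7.0d, counted those on exons with featureCounts 1.6.0 (GENCODE vM28, GRCm39 in the file headers; the methods name mm10 and GENCODE M18) and deposited raw counts, 1 file per library. The recorded command has no strand or pair option, and multi-mapping and ambiguous reads were left out. Gene symbols came from GENCODE vM21 by identifier (52081 of 55357 genes; the others held 0.286% to 0.387% of reads and stayed in the tests), and coding sequences and sites from its GRCm38 transcripts.

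Following the study's filter, genes that reached 6 reads in 1 or more libraries were tested with edgeR 4.0.16 in R 4.3.3 (TMM, quasi-likelihood test, adjusted p of 0.01, the study's threshold). The study used limma after voom, which was run as an alternative (limma 3.58.1) beside DESeq2 1.42.0, other scalings, filters, the robust fit, a replicate block and left-out libraries. On simulated counts, 189 of 200 changed genes were recovered, with 2 false calls. Chi-square per gene was 6.03 to 15.4 within and 19.1 to 38.0 between groups, so no 2 libraries agreed within sampling noise. Depth is given with the results, and read counts limit precision for *Prph* and *Nefh*.

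Replicate numbers in the labels run from 1 to 3 in each group. Deviations from the group mean over 10908 genes had correlations of 0.392, 0.189 and 0.461 for equal numbers and −0.393 to 0.108 for unequal numbers, which were thus treated as marking pairs. Blocked values are printed for named genes whose call they change.

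The 9 genes, the gene and marker lists and the rules were chosen with earlier results of these data known. Named are the 9 genes, *Pla2g4e*, up to 5 called genes and the 2 most abundant others of each filament list, the 2 markers of smallest p per list and the 2 nearest genes per called member. Other names (*Rbfox3*, *Snap25*, *Elavl3*, *Elavl4*, *Eno2*, *Syn1*, *Syp*, *Stmn2*, *Slc1a2*, *Aldh1l1*, *Fgfr3*, *Gjb6*, *Slc1a3*, *Aldoc*, *Sox9*, *S100b*, *Prom1*, *Hes5*, *Krt73*, *Lmnb2*) were added after their values were seen. Some genes that these rules name are not reported here. Lengths are the exon bases of each gene in the deposited counts.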

Additional observations from a re-analysis of the deposited data

How the results depend on the processing

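*Nefm* and *Nefh* kept their direction and call under every alternative run, and *Nefl* under all but one. Of the values that answer a comparison, under other settings 171 kept their call or moved little, 16 moved by more and 3 newly passed. With a library left out 143 kept their call or moved little, 11 moved by more, 1 newly passed and 1 no longer did. The counts of called genes in the partner and marker lists were less stable. Under other settings 66 of them moved little and 24 by more, and with a library left out 30 and 24. Values that were not called could change sign (*Ina*, −0.14 to 0.04). Over all genes, 1419 were called (543 higher, 876 lower). Without a filter 2349 were called (989 higher, 1360 lower), with the replicate block 3395 (1422 and 1973), and at an adjusted p of 0.05 there were 2813 (1214 and 1599). With a library left out the count was 695 to 1613 (246 to 681 higher, 449 to 932 lower), and it was lowest without shCtrl replicate 2. The blocked and unfiltered fits weigh a gene's own spread little (prior degrees of freedom 63.1 and infinite, against 11.7). Scaling by library size alone moved the median over all genes (log2 fold change) from 0.03 to 0.10 and the share of called genes that were lower from 61.7% to 43.3%, and the 3 called members stayed called. *Gfap* (−0.62) passed without a filter (−0.62, adjusted p = 6.35e-11), with the block (−0.64) and at a threshold of 0.05, but not with DESeq2 (adjusted p = 0.163), limma after voom (0.0160) or the robust fit (0.266). Leaving out a library gave −0.91 to −0.47 for *Gfap* and 0.42 to 0.57 for *Nefl*. The block changed no other call of a member. Without length scaling the share differences were 4.87 points for *Nefm* and −2.41 for *Nefh*, and the ratio differences −0.0711 (*Nefh* to *Nefl*) and −0.182 (*Nefh* to *Nefm*). With only exon bases that no other gene shares, a length chosen after seeing the overlap, they were −1.66 points for *Nefh*, −0.0404 and −0.213, without a change of direction. These shifts follow from the gene lengths used. The causes of the other changes were not tested. *Prph*, at 34 to 124 reads and a wide spread between the knockdown libraries, ranged from 0.12 to 0.90.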
